A study of Mus musculus with 14 samples.

Results

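The respiratory chain is described here through 102 lines of the count table, out of 54532 lines in all. A line was taken when its gene symbol named a subunit of NADH dehydrogenase (symbols opening with Nduf and a letter a, b, c, s or v before a digit), succinate dehydrogenase (Sdha to Sdhd), the cytochrome bc1 complex (Uqcr), cytochrome c oxidase (Cox4 to Cox8) or ATP synthase (Atp5), or when it was a protein gene of the mitochondrial genome (mt-Nd, mt-Cytb, mt-Co, mt-Atp). A further 8 lines whose symbols are marked as pseudogenes were left out. Of the 102 lines, 89 are encoded in the nucleus and 13 in the mitochondrial genome. Complex I holds 47 of them, of which 40 are nuclear and 7 mitochondrial. Complex II holds 4, all nuclear, and complex III holds 9, of which 8 are nuclear and 1 is mitochondrial. Complex IV holds 22, of which 19 are nuclear and 3 mitochondrial, and complex V holds 20, of which 18 are nuclear and 2 mitochondrial. The symbols were taken as they stand, so Ndufa4 is counted with complex I although it is known as a subunit of cytochrome c oxidase. Cox7a2l, a factor in joining complexes into supercomplexes, and Atp5s, a coupling factor, are counted although they are no core subunits, and the accessory subunit and acyl carrier protein Ndufab1 does not match the rule. Another 4 lines (Ndufa11b, Ndufb4c, Ndufs6b and Cox6c2) are annotated as processed copies of their parent genes although the symbols do not say so. Atp5o stands on 2 lines, and the second of these is at 0 in all libraries.

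Long-term hematopoietic stem cells (LT-HSCs) and granulocyte-macrophage progenitors (GMPs) of C57BL/6 mice were sorted out of bone marrow and measured by bulk RNA sequencing in 14 libraries. The AML1-ETO group carried the leukemia fusion gene Runx1-Runx1t1, switched on by Mx1-Cre after intraperitoneal poly(I:C) at 5 mg/kg in 4 doses on alternate days. The control group is labelled wild type, and its labels carry the same text on poly(I:C). There were 4 control and 3 AML1-ETO libraries for each cell type. Mx1-Cre is active in many cell types that respond to interferon, so the fusion is not limited to the sorted cells. The sources used here give neither the age of the mice nor whether control mice carried Mx1-Cre. The labels do not say that libraries came from separate mice, so each p-value speaks only of the spread among these samples, part of which may be technical.

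Complexes I to IV pass electrons from NADH and succinate to oxygen. Complexes I, III and IV pump protons across the inner mitochondrial membrane, and complex V uses the proton gradient to make ATP. Complexes I, III, IV and V join a few subunits made inside the mitochondrion to many that are encoded in the nucleus and imported, so both genomes have to be expressed, while complex II is wholly nuclear. LT-HSCs are known for a low rate of respiration and a large share of glycolysis, and commitment to myeloid progenitors such as GMPs is known to come with more oxidative phosphorylation.

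Several mitochondrial genes have a near-identical copy in nuclear chromosome 1, and these sequences are shown because they bear on how far mitochondrial counts can be read as gene levels. In GENCODE M21 on GRCm38, mt-Co2 (chrM:7013-7696, plus strand), the gene of a core subunit of complex IV, matches the annotated pseudogene Gm28661 (chr1:24614885-24615565) without a mismatch over 681 bases. The opening 60 bases of both are the same:
mt-Co2: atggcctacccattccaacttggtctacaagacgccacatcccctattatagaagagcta
Gm28661: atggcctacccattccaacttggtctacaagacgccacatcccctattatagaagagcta
The complex I gene mt-Nd3 (chrM:9459-9806, plus strand) differs from Gm28438 (chr1:24612775-24613119) at 1 of 345 compared bases, which is in capitals in the opening 60 bases of each:
mt-Nd3: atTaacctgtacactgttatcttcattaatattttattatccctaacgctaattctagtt
Gm28438: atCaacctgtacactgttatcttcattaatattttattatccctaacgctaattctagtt
Over the 14 libraries mt-Co2 held 9875 counts and Gm28661 held 7110. For mt-Atp6 and Gm10925 the counts were 6103 and 6939, for mt-Co3 and Gm28437 they were 4543 and 3313, and for mt-Nd4l and Gm10222 they were 663 and 582, each pair being identical where compared. For mt-Nd3 and Gm28438 they were 929 and 95. The sources used here do not give how reads shared by a pair were counted. The levels of these 5 mitochondrial genes are therefore uncertain, as are those of mt-Co1 and mt-Nd4, for which chromosome 1 copies cover 31.3% and 63.6% of the gene. A copy on chromosome 2 covers all of mt-Co1 at 97.6% identity. The counts were 1438353 for mt-Co1 against 2284 and 575 for its 2 copies. Copies of 96.7% and 95.2% identity cover 49.1% of mt-Nd2 and 52.3% of mt-Nd5, with 7 and 3 counts, and may affect these levels too.

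Promoters of nuclear subunits are known to hold sites for NRF1, ETS-family factors such as GABP, YY1 and the estrogen-related receptors (ERR). RefSeq promoters of GRCm38.p6, from 250 bases before to 50 after the start, matched 68 of the 88 nuclear symbols. The exact letters GCGCATGCG, the core of an NRF1 site, stood on either strand in 8 of the 68 (11.8%), against 1.95% of all 27025 promoters in the table. The ETS letters CCGGAAG stood in 16 (23.5%) against 9.93%, and the YY1 letters AAGATGGCG in 7 (10.3%) against 1.64%. The ERR letters TCAAGGTCA stood in 2 (2.94%) against 0.466%. The letters TGTGGT, which RUNX1 is known to bind through the domain that the fusion protein keeps, stood in 7 (10.3%) against 18.9%. A match is a description of the letters in this window. Promoters are shown for members that recur in the results: Uqcrc1 with the NRF1 letters in capitals (matches on both strands overlap), Sdhd with the ETS and ERR letters in capitals on the opposite strand, and Ndufa10, in which none of the 5 sets of letters was found. Each reads 5′ to 3′ on its gene's strand:
Uqcrc1 (chr9:108936398-108936697, plus strand): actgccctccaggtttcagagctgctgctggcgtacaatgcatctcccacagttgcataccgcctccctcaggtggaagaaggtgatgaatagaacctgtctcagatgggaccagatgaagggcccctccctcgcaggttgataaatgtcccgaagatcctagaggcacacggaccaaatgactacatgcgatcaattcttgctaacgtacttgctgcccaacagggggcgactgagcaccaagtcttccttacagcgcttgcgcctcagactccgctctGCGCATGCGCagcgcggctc
Sdhd (chr9:50603800-50604099, minus strand): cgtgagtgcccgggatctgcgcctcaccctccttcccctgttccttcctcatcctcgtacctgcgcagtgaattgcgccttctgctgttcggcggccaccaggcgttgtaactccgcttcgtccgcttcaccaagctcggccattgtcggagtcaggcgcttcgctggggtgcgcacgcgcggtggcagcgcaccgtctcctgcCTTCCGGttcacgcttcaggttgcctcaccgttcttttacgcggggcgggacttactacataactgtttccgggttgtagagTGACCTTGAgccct
Ndufa10 (chr1:92473709-92474008, minus strand): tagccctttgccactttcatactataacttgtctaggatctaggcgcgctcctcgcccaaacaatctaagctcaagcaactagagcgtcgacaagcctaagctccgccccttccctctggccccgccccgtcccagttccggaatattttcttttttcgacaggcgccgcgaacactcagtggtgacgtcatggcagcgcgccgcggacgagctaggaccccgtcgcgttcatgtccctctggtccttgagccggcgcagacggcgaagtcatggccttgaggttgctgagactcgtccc

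The libraries held between 13210952 and 19403864 counts each. Summed CPM (read counts relative to library sizes scaled over the 14 libraries) of 11 LT-HSC markers were 980 to 2329 in control LT-HSCs and 1716 to 2173 in AML1-ETO LT-HSCs, against 284 to 772 in the GMP libraries. Those of 10 GMP markers were 21503 to 35580 in the GMPs, against 607 to 1085 in control LT-HSCs (Csf1r and Cebpe at 0) and 2099 to 2462 in AML1-ETO LT-HSCs (Elane at 0). Runx1t1, the fusion partner, was at 0 to 18.2 CPM in control LT-HSCs and 85.6 to 164 CPM in the AML1-ETO LT-HSCs. In GMPs it was at 1.69 to 2.74 CPM in controls and 26.0 to 45.7 CPM in AML1-ETO. Control LT-HSC libraries stood apart from the rest: 11 B-lymphocyte and plasma cell markers summed to 13268 to 77905 CPM there, against 295 to 880 CPM in the other groups, and immunoglobulin genes took 1.92% to 10.4% of their counts, most in replicate 2. In AML1-ETO LT-HSCs 10 mast cell and basophil markers summed to 8988 to 11267 CPM, against 415 to 667 CPM in control LT-HSCs, where Fcer1a, Mcpt4 and Prss34 were at 0. Between 12106 and 15329 genes had a count in control LT-HSC libraries, 16427 to 18106 in AML1-ETO LT-HSCs, 18747 to 19508 in control GMPs and 13473 to 14887 in AML1-ETO GMPs.

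Nuclear subunits took 0.577%, 0.856%, 0.750% and 0.753% of all counts in control LT-HSC replicates 1 to 4, and 0.482%, 0.447% and 0.519% in AML1-ETO LT-HSC replicates 1 to 3. In control GMPs they took 1.04%, 0.952%, 1.09% and 0.942%, and in AML1-ETO GMPs 0.898%, 0.887% and 0.867%. In these shares every AML1-ETO library lay below every control library of its cell type, and every GMP library lay above every LT-HSC library. The means were 0.734% ± 0.116 (SD, n = 4) in control LT-HSCs, 0.483% ± 0.0363 (n = 3) in AML1-ETO LT-HSCs, 1.01% ± 0.0703 (n = 4) in control GMPs and 0.884% ± 0.0159 (n = 3) in AML1-ETO GMPs. In bulk samples fewer cells of a type and less RNA per cell cannot be told apart. A share also depends on every other gene in the library, which the scaling of CPM allows for. On the log2 scale of scaled CPM, the median level of the nuclear members was 5.27 to 6.27 in control LT-HSCs and 5.14 to 5.32 in AML1-ETO LT-HSCs. These ranges overlapped through control replicate 1. The GMP ranges overlapped too, at 6.30 to 6.61 in controls and 6.26 to 6.35 in AML1-ETO. Within a genotype the cell types did not overlap. Across genotypes, control LT-HSC replicate 2 (6.274) lay above AML1-ETO GMP replicates 2 (6.258) and 3 (6.273).

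By complex, the nuclear subunits of ATP synthase took the largest share of counts and those of complex II the smallest in each group. For complex V the share was 0.318% ± 0.0473 (SD, n = 4) in control LT-HSCs, 0.209% ± 0.0155 (n = 3) in AML1-ETO LT-HSCs, 0.443% ± 0.0272 (n = 4) in control GMPs and 0.379% ± 0.0184 (n = 3) in AML1-ETO GMPs. For complex II it was 0.0615% ± 0.0114, 0.0367% ± 0.00247, 0.0734% ± 0.00345 and 0.0655% ± 0.00366 in the same order. In LT-HSCs the genotypes did not overlap in any of the 5 nuclear sets, complex IV being the closest, at 0.0866% to 0.150% in controls and 0.0723% to 0.0822% in AML1-ETO. In GMPs they overlapped for complexes III and IV, at 0.0955% to 0.113% against 0.0905% to 0.0976% and at 0.140% to 0.176% against 0.142% to 0.158%, and not for complexes I, II and V.

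The 13 mitochondrially encoded genes took 1.07%, 1.46%, 0.937% and 0.936% of the counts in control LT-HSC replicates 1 to 4 and 0.961%, 0.814% and 0.891% in AML1-ETO LT-HSCs. They took 1.58%, 1.32%, 1.35% and 1.28% in control GMPs and 1.59%, 1.21% and 1.22% in AML1-ETO GMPs. The genotypes overlapped in both cell types, unlike the nuclear shares. The mitochondrial share over the nuclear share was 1.51 ± 0.316 (SD, n = 4) in control LT-HSCs, 1.84 ± 0.140 (n = 3) in AML1-ETO LT-HSCs, 1.38 ± 0.113 (n = 4) in control GMPs and 1.51 ± 0.220 (n = 3) in AML1-ETO GMPs.

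**Figure D1:**
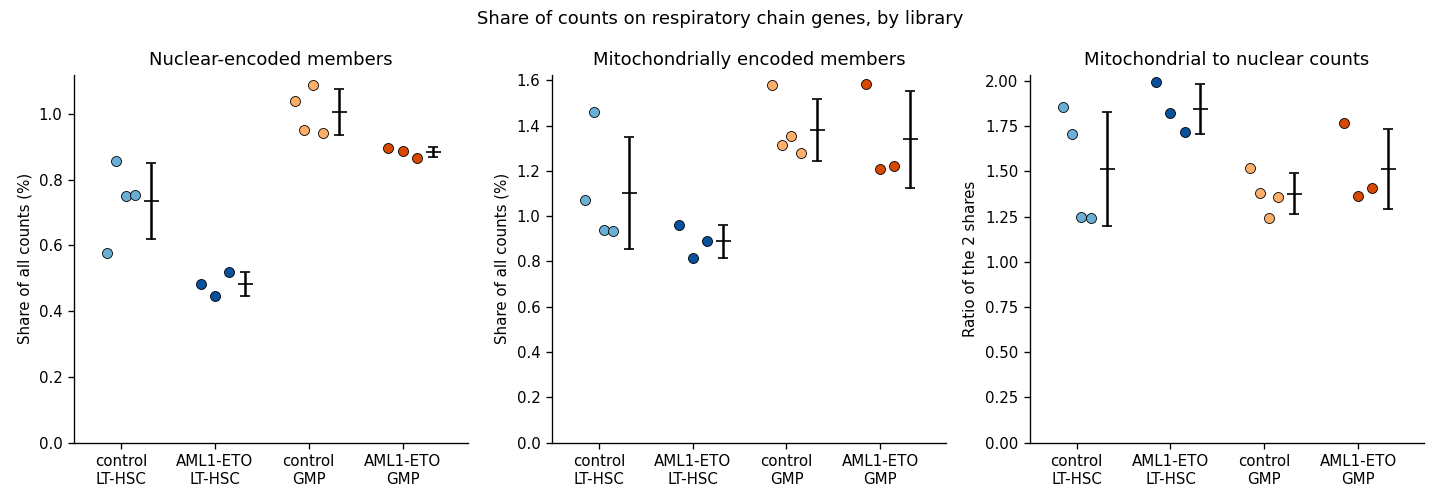
Percent of all counts in each library (vertical axis) from the nuclear members and from the mitochondrially encoded members, with 1 point per library and the mean and SD of each of the 4 groups. Nuclear shares of AML1-ETO libraries lie below those of control libraries of the same cell type (0.447% to 0.519% against 0.577% to 0.856% in LT-HSCs), whereas the mitochondrial shares overlap. In median scaled CPM, not shown here, the LT-HSC genotypes overlap for the nuclear members and not for the mitochondrial ones.

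Per kilobase of gene, the mitochondrial genes led the chain in every group. In control LT-HSCs the mean level was 3544 CPM per kb for mt-Co1, the catalytic core of cytochrome c oxidase, 1394 for mt-Cytb, the cytochrome b of complex III, and 1036 for mt-Nd1, a membrane subunit of complex I. The next 4 in every group were mt-Nd4, mt-Nd2, mt-Nd5 and mt-Nd6, all of complex I. The highest nuclear members of control LT-HSCs were Atp5a1, the alpha subunit of ATP synthase, at 251 CPM per kb, Cox8a at 221 and Atp5b, the catalytic beta subunit, at 218. In AML1-ETO GMPs Cox6a1, a regulatory subunit of complex IV, was the highest nuclear member at 335 CPM per kb. The genes with a full identical copy on chromosome 1 were far lower, with mt-Co2 at 54.5 CPM per kb in control LT-HSCs against 3544 for mt-Co1. Whether the copies account for this was not tested. mt-Atp8, for which no such copy was found among annotated transcripts, did not pass the filter on low counts in the LT-HSC genotype comparison. Sequence outside annotated transcripts was not searched. As mt-Atp8 follows mt-Co2 and overlaps mt-Atp6, which both have a copy on chromosome 1, its level is uncertain too. Of the 102 lines, Ndufa11b, Cox7b2, Cox8b and Cox8c had no count in any library, and with them Ndufa4l2, Ndufs6b, Cox6c2 and the second line of Atp5o passed the filter on low counts in no comparison. The lines tested in all comparisons numbered 89. Ndufb4c, a processed copy identical to its parent over the matched length, held 265 counts, so its level and that of its parent are uncertain.

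In LT-HSCs, 4 nuclear members fell in AML1-ETO mice and no member rose: Cox6b2, Ndufa10, Ndufv1 and Sdhd. They belong to complex IV, complex I (Ndufa10 and Ndufv1) and complex II, and 3 of the 4 fell by less than 1 on the log2 scale. A member was called at an adjusted p below 0.05 in edgeR's quasi-likelihood test with p-values adjusted by the Benjamini-Hochberg method across every gene tested. Of 90 members tested 4 were lower, where 4.69% of all genes tested were lower, and 0 were higher, where 7.59% were. Higher genes made up 61.8% of all calls, and 51.7% with upper-quartile scaling. At an unadjusted p under 0.05 in edgeR, 17 were lower and 1 was higher, and DESeq2 too called none higher. Of all 14589 genes tested, 1737 were lower and 2024 higher at that unadjusted p. The median log2 fold change was −0.46 over the nuclear members, with 67 of 78 below 0, −0.21 over the mitochondrial ones, with 11 of 12 below 0, and 0.03 over all genes. By complex the nuclear medians were −0.41 (I), −0.63 (II), −0.47 (III), −0.46 (IV) and −0.42 (V), and the mitochondrial ones −0.26 for complex I and −0.01 for complex IV.

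Cox6b2, the isoform of cytochrome c oxidase subunit 6B known from testis (chr7:4751792-4753094, minus strand), was at 17.3, 59.7, 42.1 and 50.1 CPM in control LT-HSC replicates 1 to 4 and at 7.11, 6.76 and 5.63 CPM in AML1-ETO LT-HSC replicates 1 to 3. Every AML1-ETO library was below every control library, and control replicate 1 was the nearest. The log2 fold change was −2.59 ± 0.46 (SE), with an adjusted p of 0.0101 in edgeR's test. Its common isoform Cox6b1 was at 38.2, 88.5, 58.8 and 72.4 CPM in the controls and at 35.7, 32.02 and 42.3 CPM in AML1-ETO, with overlapping groups. Its difference of −0.71 ± 0.30 on the log2 scale was not called (adjusted p = 0.166 in edgeR). Cox6b2 gave 38.5% ± 4.94 (SD, n = 4) of the reads of the Cox6b genes in control LT-HSCs and 15.3% ± 3.07 (n = 3) in AML1-ETO LT-HSCs, 16.4% ± 2.92 (n = 4) in control GMPs and 14.7% ± 5.40 (n = 3) in AML1-ETO GMPs. Control LT-HSCs were thus the group with the highest share of this isoform.

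Ndufa10, an accessory subunit of the complex I membrane arm (chr1:92439010-92473860, minus strand), was at 91.0, 126, 123 and 117 CPM in control LT-HSCs and at 51.4, 57.9 and 61.2 CPM in the AML1-ETO LT-HSCs. The groups did not overlap. Its log2 fold change was −0.91 ± 0.18, adjusted p = 0.0156 in edgeR. Ndufv1, which binds NADH and the flavin at the tip of complex I (chr19:4007384-4012806, minus strand), was at 72.1, 122, 139.8 and 127 CPM in the controls and at 53.0, 50.1 and 63.3 CPM in AML1-ETO. Control replicate 1 again lay nearest to the AML1-ETO libraries, and the log2 fold change was −0.95 ± 0.24, adjusted p = 0.0399 in edgeR. Sdhd, a membrane anchor of succinate dehydrogenase (chr9:50596357-50603812, minus strand), was at 90.4, 115, 139 and 103 CPM in the controls and at 42.8, 57.5 and 63.8 CPM in AML1-ETO. Its groups did not overlap either, and the log2 fold change was −0.93 ± 0.22, adjusted p = 0.0280 in edgeR.

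The other subunits of complex II were not called: Sdha, the flavoprotein that oxidises succinate, was at −0.34 ± 0.18 (adjusted p = 0.280 in edgeR), the iron-sulfur subunit Sdhb at −0.76 ± 0.32 (0.182) and the anchor Sdhc at −0.50 ± 0.34 (0.426). In complex III the core subunit Uqcrc1 was at 170.0, 252, 249 and 249 CPM in control LT-HSCs and at 153, 142 and 169 CPM in the AML1-ETO LT-HSCs. These groups did not overlap, but its log2 fold change of −0.47 ± 0.18 was not called (adjusted p = 0.140 in edgeR). Among other members that were not called, the complex I accessory subunits Ndufa12 and Ndufa1 were at −1.97 ± 0.62 (adjusted p = 0.0780 in edgeR) and −1.45 ± 0.46 (0.0771), and Atp5g1, a gene of the ATP synthase c-ring, was at −1.36 ± 0.39 (0.0580). Ndufa4 (0.54 ± 0.31) and Cox7a2l (0.35 ± 0.27) stood on the other side of 0 and were not called either. In 23 members, 22 nuclear and mt-Nd2, every AML1-ETO LT-HSC library lay below every control one, where the same held for 13.0% of all genes tested.

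These calls depended on single libraries. Without AML1-ETO replicate 1, 2 or 3 no member was called lower, and without control replicate 1, 2, 3 or 4 the number was 13, 3, 8 or 2. Calls over all genes, in either direction, were 1791 with all libraries and 534, 334 or 689 without AML1-ETO replicate 1, 2 or 3. They were 2203, 1668, 2376 or 1147 without control replicate 1, 2, 3 or 4. Without control replicate 2, the library with the most immunoglobulin, 1 member was higher, the nuclear median was −0.30 and the mitochondrial median was 0.08. With control replicates 2 and 3 left out together, 2 members were higher and 2 lower, of which 2 were among the 4 above, and the nuclear median was −0.20. The B-lymphocyte markers (none of the 11 at 0 in either group), the mast cell markers and the number of genes with a count moved with the genotype in LT-HSCs at the values above. Erythroid markers did too, at 1042 to 2709 CPM summed over 11 genes in controls and 449 to 535 CPM in AML1-ETO. Of these, Car1 (means of 616 and 5.98 CPM) and Car2 (774 and 388) were lower, while the globin genes went the other way, such as Hba-a1 (6.79 and 19.8). The summed 10 T and NK cell markers were at 172 to 984 CPM (Cd3e and Cd3g at 0) and 26.3 to 57.5 CPM, with Nkg7, Cd3e and Cd3g going the other way. The 9 neutrophil markers were at 51.8 to 169.7 CPM and 0.230 to 43.9 CPM (Mmp8 and Mmp9 at 0). The summed GMP markers were higher in AML1-ETO, without overlap. Among them Elane (means of 23.6 CPM in controls and 0 in AML1-ETO), Prtn3 (65.6 and 13.7) and Ms4a3 (5.17 and 4.26) went the other way. The part of all these markers in the difference was not tested.

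**Figure D2:**
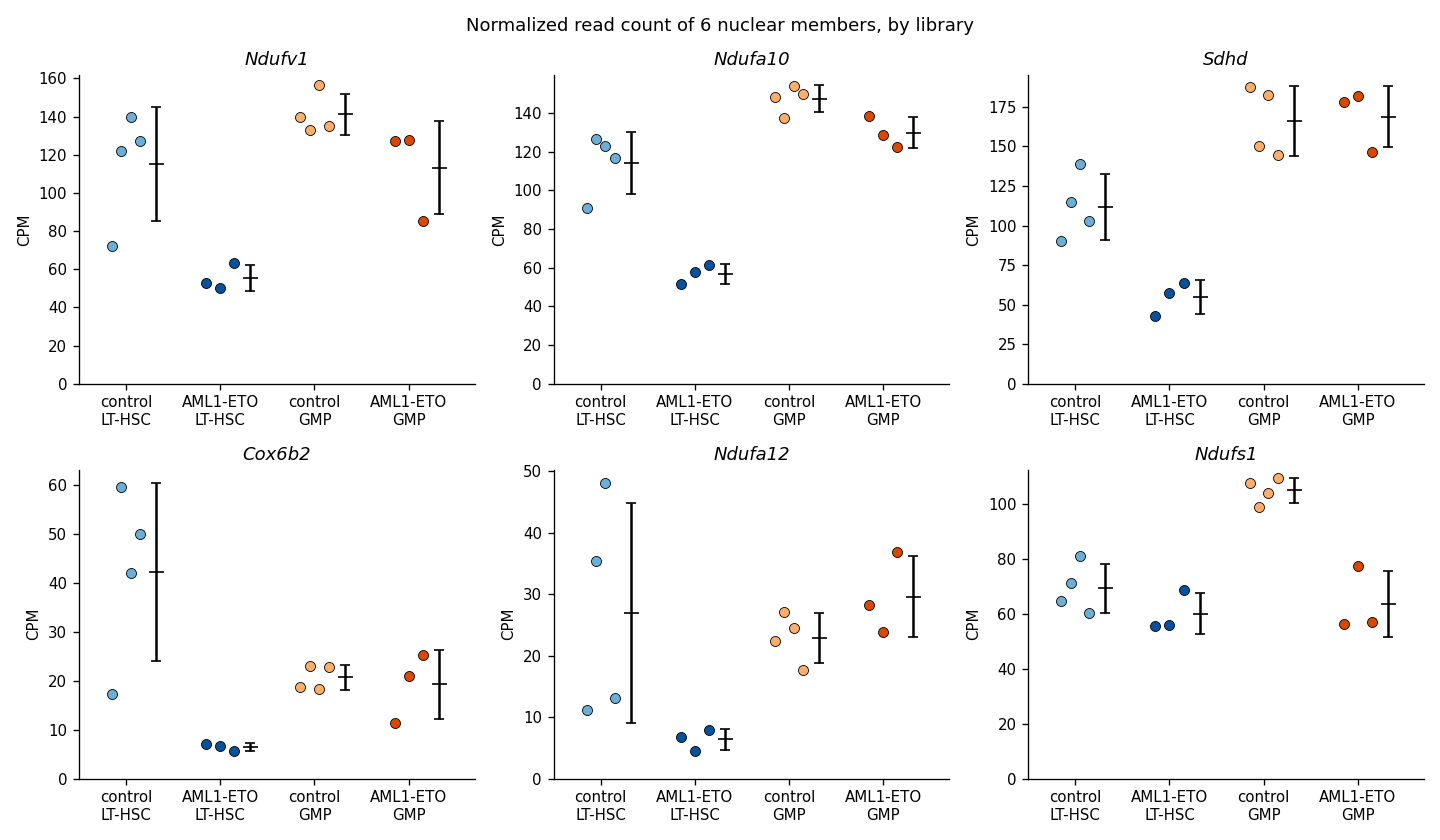
CPM of Ndufv1, Ndufa10, Sdhd, Cox6b2, Ndufa12 and Ndufs1 in each of the 14 libraries, by group, on a vertical axis from 0, with 1 point per library and the mean and SD of each group beside the points. Cox6b2, Ndufa10, Ndufv1 and Sdhd are lower in each of the 3 AML1-ETO LT-HSC libraries than in the 4 control ones, and the GMP groups of Cox6b2, Ndufv1 and Sdhd overlap.

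In GMPs, 1 member fell in AML1-ETO mice and none rose. Ndufs1, the largest subunit of complex I, which carries iron-sulfur clusters (chr1:63143596-63176833, minus strand), was at 108, 99.1, 104 and 109.8 CPM in control GMP replicates 1 to 4 and at 56.4, 77.6 and 57.0 CPM in AML1-ETO GMP replicates 1 to 3. The groups did not overlap. The log2 fold change was −0.71 ± 0.14 with an adjusted p of 0.0235 in edgeR. The share of members called was 1 of 93 lower and 0 of 93 higher, where 3.96% of all genes tested were lower and 5.47% higher. At an unadjusted p under 0.05 in edgeR, 16 members were lower and 1 was higher, and DESeq2 called none higher here either. Of all 13981 genes tested, 1590 were lower and 1780 higher at that unadjusted p. The nuclear median was −0.16, the mitochondrial median −0.09 and that of all genes −0.03.

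The 4 members that fell in LT-HSCs were not called in GMPs: Ndufa10 was at −0.17 ± 0.09, Ndufv1 at −0.30 ± 0.15, Sdhd at 0.04 ± 0.13 and Cox6b2 at −0.09 ± 0.29. Ndufs1 in turn was at −0.11 ± 0.19 in LT-HSCs, where it was at 64.8, 71.3, 81.1 and 60.4 CPM in controls and at 55.7, 56.0 and 68.7 CPM in AML1-ETO. Its libraries overlapped there. Every AML1-ETO GMP library lay below every control GMP library in 17 members, where 16.1% of all genes tested did so. Every one lay above in 1 of the 93 members, where 1483 of all 13981 genes tested did so. This member was Cox6a1, at 206, 187, 227 and 172 CPM in controls and 229, 233 and 244 CPM in AML1-ETO. Cox6a1 was not called (0.27 ± 0.11, adjusted p = 0.189 in edgeR). Ndufs1 lost its call without any 1 of the control GMP libraries (adjusted p = 0.074 to 0.091 in edgeR), and then no member was lower. Without AML1-ETO GMP replicate 1, 2 or 3, the number lower was 3, 13 or 2. Calls over all genes, in either direction, were 1319 with all libraries and 131 to 209 without any 1 control GMP library. They were 2477, 3514 or 1872 without AML1-ETO GMP replicate 1, 2 or 3. Mast cell markers were at 594 to 782 CPM in control GMPs and 2648 to 3916 CPM in AML1-ETO GMPs, neutrophil markers at 56.0 to 79.2 and 598 to 3633 CPM, B-lymphocyte and plasma cell markers at 429 to 475 and 586 to 745 CPM, and erythroid markers at 234 to 279.6 and 234 to 5014 CPM. Of the B-lymphocyte and plasma cell markers, Xbp1 (means of 276 CPM in controls and 403 in AML1-ETO) and Igkc (0 and 83.8) rose most. Igkc was at 234 CPM in AML1-ETO GMP replicate 3. Ighm (145 and 82.7) and Sdc1 (3.76 and 0) went the other way, as did Tfrc (227 and 181) among the erythroid markers. The part of all these markers in the difference was not tested.

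**Figure D3:**
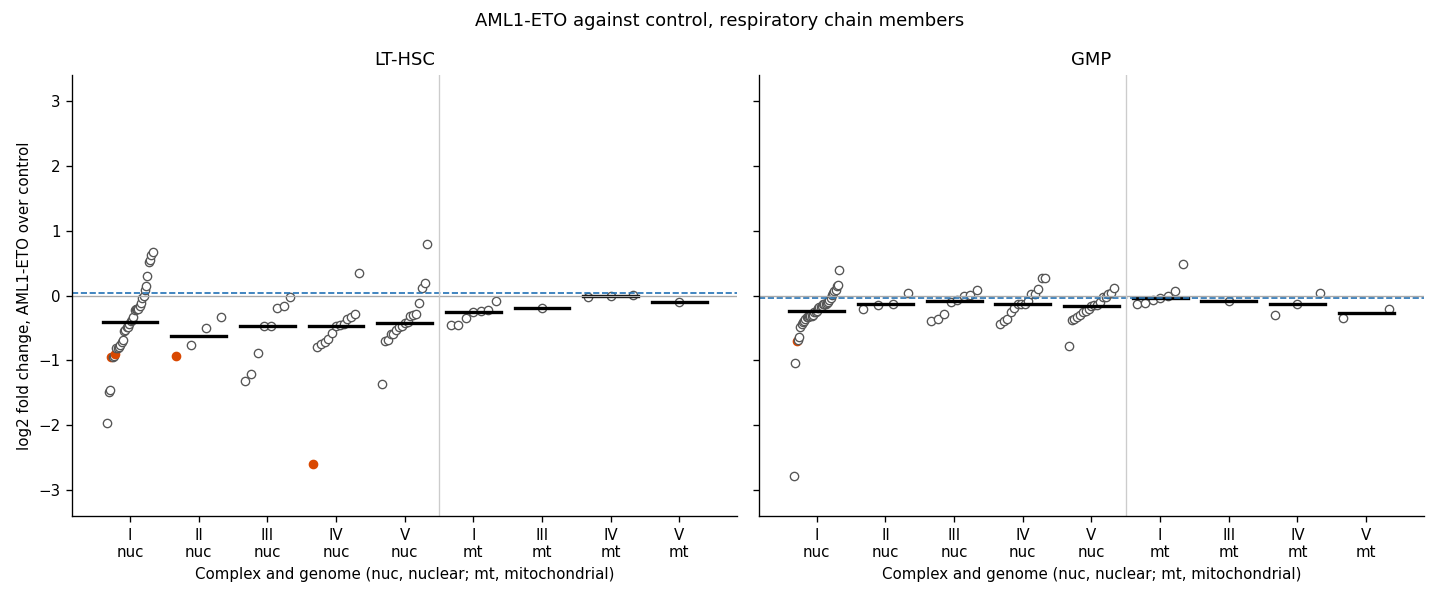
Log2 fold change of AML1-ETO against control for each member tested, in LT-HSCs and in GMPs, grouped by complex and genome, with called members filled, a thick line at the median of each set and a dashed line at the median of all genes. The nuclear medians are −0.46 in LT-HSCs and −0.16 in GMPs, with 4 members called lower in LT-HSCs and 1 in GMPs.

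The genotype difference was then compared between the cell types with an interaction term in a fit of all 14 libraries, which share libraries with the comparisons above. For 4 members the difference was higher in GMPs than in LT-HSCs: Cox6b2 by 2.59 ± 0.55 on the log2 scale (adjusted p = 0.0135 in edgeR), Ndufa10 by 0.82 ± 0.20 (0.0242), Sdhd by 1.05 ± 0.26 (0.0275) and Ndufa12 by 2.45 ± 0.66 (0.0399). Ndufa12 (chr10:94198720-94221443, plus strand) was at 11.1, 35.3, 48.1 and 13.1 CPM in control LT-HSCs and 6.75, 4.45 and 7.89 CPM in the AML1-ETO LT-HSCs. In GMPs it was at 22.4, 27.0, 24.4 and 17.6 CPM in controls and 28.2, 23.8 and 36.8 CPM in AML1-ETO. The LT-HSC genotypes did not overlap and the GMP genotypes did, and the highest of the 14 libraries was control LT-HSC replicate 3. Of 94 members tested 4 were higher, where 3.43% of all genes were higher, and none was lower, where 2.91% were. At an unadjusted p under 0.05 in edgeR, 16 were higher and 2 lower, and DESeq2 and voom called none lower. Of all 16116 genes tested, 1706 were higher and 1606 lower at that unadjusted p. With the replicate number as a block over all 14 libraries, Cox6b2 alone was called, and Ndufa10 (adjusted p = 0.0632 in edgeR), Ndufa12 (0.0702) and Sdhd (0.0516) were not. The nuclear median was 0.41, the mitochondrial median 0.20 and that of all genes 0.01. For Ndufv1 the difference between cell types was 0.74 ± 0.30 (adjusted p = 0.174 in edgeR) and for Ndufs1 it was −0.52 ± 0.23 (0.222), so neither genotype difference was shown to differ between the cell types.

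Leaving out 1 library gave 1 to 11 members called higher in this comparison. It was 1, 4 or 3 without AML1-ETO GMP replicate 1, 2 or 3 and 1, 1 or 3 without AML1-ETO LT-HSC replicate 1, 2 or 3. Without control GMP replicate 1, 2, 3 or 4 it was 2, 1, 3 or 1, and without control LT-HSC replicate 1, 2, 3 or 4 it was 11, 3, 5 or 4. A single member was called lower without AML1-ETO GMP replicate 2, AML1-ETO LT-HSC replicate 3 or control LT-HSC replicate 2. Calls over all genes, in either direction, were 1021 with all libraries and 471 to 1477 with 1 left out. The call of Cox6b2 held without each of the 14 libraries in turn but was lost with voom (2.37, adjusted p = 0.130 in limma). Ndufa12 lost its call without 10 of the 14 libraries, Ndufa10 without 6 and Sdhd without 5. The nuclear median was 0.17 without control LT-HSC replicate 2.

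From LT-HSC to GMP, 75 of the 81 nuclear members tested were at a difference above 0 in each genotype, and 35 rose in control mice and 49 in AML1-ETO mice. In control mice 36 of 94 members rose, 35 of them nuclear, and Cox6b2 alone fell (−1.03 ± 0.36, adjusted p = 0.0486 in edgeR, and up to 0.121 with 1 library left out). Over all genes tested 13.9% were higher and 10.6% lower. The nuclear median was 0.60, the mitochondrial median 0.48 and that of all genes 0.02, or 0.17 over the 8122 genes with a mean of at least 20 CPM. By complex, nuclear members rose in 10 of 37 for complex I, 2 of 4 for complex II, 2 of 8 for complex III, 9 of 15 for complex IV and 12 of 17 for complex V. In 37 members every control GMP library lay above every control LT-HSC library, where 20.8% of all genes tested did so.

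The largest increases in control mice among members with a mean of at least 20 counts were those of Ndufb7, an accessory subunit of complex I, at 1.45 ± 0.21 (adjusted p = 0.00022 in edgeR), Uqcrb of complex III at 1.40 ± 0.49 (0.0495), Atp5mpl, a small subunit of ATP synthase, at 1.27 ± 0.33 (0.0126), Ndufb3 at 1.18 ± 0.38 (0.0362) and Ndufa4 at 1.14 ± 0.24 (0.00335). Ndufb7 was at 34.0, 47.1, 23.3 and 29.9 CPM in control LT-HSCs and at 101, 84.5, 96.4 and 83.9 CPM in the control GMPs. Every GMP library was above every LT-HSC library. Ndufa4 was at 34.9, 94.5, 59.3 and 49.2 CPM in control LT-HSCs and at 130.0, 121, 146 and 129 CPM in the control GMPs, again without overlap. In AML1-ETO mice it was at 83.9, 74.2 and 83.0 CPM in LT-HSCs and 81.2, 107 and 114 CPM in GMPs, which overlapped and were not called (0.33 ± 0.27, adjusted p = 0.452 in edgeR).

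Uqcrc1 rose by 0.74 ± 0.14 (adjusted p = 0.00225 in edgeR), from 170.0 to 252 CPM in control LT-HSCs to 357 to 393 CPM in control GMPs. Atp5b was at 679, 1084, 1039 and 900.0 CPM in control LT-HSCs and at 1519, 1349.6, 1516 and 1345 CPM in the control GMPs, a rise of 0.63 ± 0.15 (0.00853). Atp5a1 rose by 0.62 ± 0.13 (0.00367), Ndufs1 by 0.60 ± 0.15 (0.0109) and Cox5a and Cox5b, nuclear subunits around the catalytic core of complex IV, by 0.98 ± 0.18 (0.00154) and 1.0 ± 0.21 (0.00382). These 6 genes and Ndufb7, Atp5mpl and Ndufa4 were called under every alternative analysis run for this comparison and without each library in turn. Cox4i1 (0.65 ± 0.21), Cox6a1, Cox6b1, Cox8a, Atp5g1, Atp5g3, Ndufb3, Uqcrb, Sdha and Sdhd were called with all libraries but not without some of them, with adjusted p values in edgeR of up to 0.122. The number of members that rose was 15, 25, 15 or 27 without control GMP replicate 1, 2, 3 or 4 and 20, 61, 37 or 25 without control LT-HSC replicate 1, 2, 3 or 4. With control LT-HSC replicates 2 and 3 both left out it was 65 and the nuclear median was 0.94. Calls over all genes, in either direction, were 3949 with all libraries, 2660 to 4584 with 1 left out and 4737 with both left out. B-lymphocyte and plasma cell markers were at 429 to 475 CPM in control GMPs against 13268 to 77905 CPM in control LT-HSCs, and erythroid markers at 234 to 279.6 CPM (Hba-a2 at 0) against 1042 to 2709 CPM. Their part in the difference was not tested.

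In AML1-ETO mice 52 of 94 members rose from LT-HSC to GMP, 49 of them nuclear, and none fell, where 12.6% of all genes tested were higher and 9.15% lower. At an unadjusted p under 0.05 in edgeR, 69 were higher and 0 lower, and DESeq2 called 52 higher and 0 lower. Of all 16116 genes tested, 3015 were higher and 2552 lower at that unadjusted p. The nuclear median was 1.03, the mitochondrial median 0.66 and that of all genes 0.00, or 0.11 over those 8122 genes. Nuclear members rose in 16 of 37 for complex I, all 4 for complex II, 5 of 8 for complex III, 10 of 15 for complex IV and 14 of 17 for complex V. In 80 members every AML1-ETO GMP library lay above every AML1-ETO LT-HSC library, where 21.1% of all genes tested did so. The number that rose was 35 to 47 when any 1 of the 6 libraries was left out. Calls over all genes, in either direction, were 3505 with all libraries and 2092 to 3298 with 1 left out. Mast cell markers were at 8988 to 11267 CPM in AML1-ETO LT-HSCs and 2648 to 3916 CPM in AML1-ETO GMPs, although Fcer1a, Mcpt8, Hdc and Prss34 had higher means in the GMPs. Neutrophil markers were at 0.230 to 43.9 CPM and 598 to 3633 CPM. T and NK cell markers were at 26.3 to 57.5 CPM and 265 to 351 CPM (Cd3g and Klrd1 at 0). Most of the latter rise was Nkg7 (means of 30.7 and 280 CPM), and Cd3e, Cd3g and Klrd1 went the other way. The part of these markers in the difference was not tested.

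The largest increases were those of Ndufa12 at 2.21 ± 0.51 (adjusted p = 0.00679 in edgeR), Uqcrq, a small subunit of complex III, at 1.96 ± 0.31 (0.000522), Atp5g1 at 1.92 ± 0.33 (0.000947), Uqcr11 at 1.84 ± 0.40 (0.00446) and Ndufa1, an accessory subunit of complex I encoded on the X chromosome, at 1.78 ± 0.35 (0.00249). Uqcrq was at 24.7, 27.0 and 29.96 CPM in LT-HSCs of AML1-ETO mice and at 123, 96.2 and 98.6 CPM in AML1-ETO GMPs. Control LT-HSCs spanned 41.4 to 109 CPM and control GMPs 84.1 to 121 CPM, which overlapped. All subunits of succinate dehydrogenase rose in AML1-ETO mice: Sdha by 0.59 ± 0.15 (0.0100), Sdhb by 0.85 ± 0.28 (0.0453), Sdhc by 0.93 ± 0.28 (0.0304) and Sdhd by 1.62 ± 0.20 (8.2e-05). Ndufa10 rose by 1.19 ± 0.15 (9.98e-05), Uqcrc1 by 1.28 ± 0.17 (0.000129) and Cox5a by 1.60 ± 0.21 (0.000139). Cox6b2, which fell in control mice, rose here by 1.57 ± 0.42 (0.0160), from 5.63 to 7.11 CPM in LT-HSCs to 11.4 to 25.4 CPM in GMPs. The replicate number, taken as a pairing in these groups, was added as a block: 45 members then rose in the fit of all 14 libraries, against 52 without the block. In a fit of these 6 libraries alone 48 rose with the block and 60 without it. In the fit of 6 libraries with the block, Cox6b2 (adjusted p = 0.105 in edgeR) and Sdha (0.052) were not called. Cox6b2 also lost its call without AML1-ETO LT-HSC replicate 2 (adjusted p = 0.0569 in edgeR), AML1-ETO LT-HSC replicate 3 (0.0636) or AML1-ETO GMP replicate 3 (0.0543). Sdhb lost its call without each of the 6 libraries (adjusted p up to 0.154 in edgeR), and also with DESeq2 (0.0533), upper-quartile scaling, no filter or the block in the fit of all 14 libraries. Sdhc and Uqcrfs1 each lost theirs without 5 of the 6 libraries (up to 0.116 and 0.126).

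Of the members followed throughout, Ndufa9, an accessory subunit of complex I, and Uqcrc2, the partner of Uqcrc1 in complex III, were called in none of the comparisons. Ndufa9 was at 36.3, 69.8, 34.4 and 69.9 CPM in control LT-HSCs and at 80.9, 77.4, 88.1 and 72.2 CPM in the control GMPs, against 35.9, 34.9 and 46.3 CPM and 65.0, 65.9 and 58.1 CPM in AML1-ETO mice. The cell types did not overlap in either genotype. Its differences of 0.60 ± 0.23 in control mice and 0.69 ± 0.27 in AML1-ETO mice had adjusted p values of 0.0737 and 0.0813 in edgeR. Uqcrfs1, the Rieske iron-sulfur protein of complex III, rose in AML1-ETO mice (1.06 ± 0.34, adjusted p = 0.0376 in edgeR), from 58.4 to 74.0 CPM in LT-HSCs to 111 to 159 CPM in GMPs. In control mice it was at 80.9, 153, 39.3 and 104 CPM in LT-HSCs and 129 to 153 CPM in GMPs, and was not called (0.58 ± 0.29). Cox7a2l did not move with cell type by any called amount, at −0.05 ± 0.21 in control mice and −0.04 ± 0.24 in AML1-ETO mice.

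Called in both genotypes were 27 members, 75.0% of the 36 that rose in control mice and 51.9% of the 52 that rose in AML1-ETO mice. A further 9 were called in control mice alone and 25 in AML1-ETO mice alone. The difference between the genotypes is the interaction above, which was called for 4 members. Among those called in AML1-ETO mice only, Ndufv1 was at 0.29 ± 0.20 in control mice and 1.03 ± 0.23 (adjusted p = 0.00538 in edgeR) in AML1-ETO mice, and Ndufb8 at 0.65 ± 0.27 and 1.36 ± 0.31 (0.00644).

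**Figure D4:**
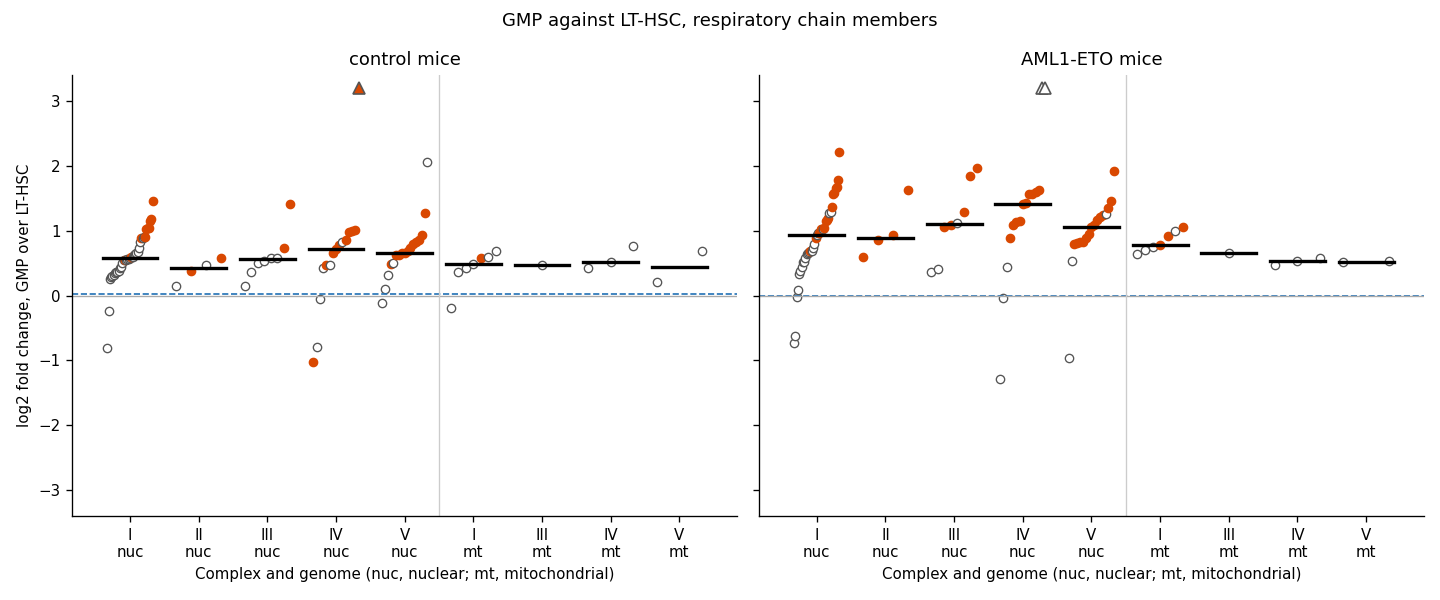
Log2 fold change of GMP against LT-HSC for each member tested, in control mice (left) and AML1-ETO mice (right), by complex and genome, with called members filled, thick lines at set medians, a dashed line at the median of all genes and triangles for values beyond the axis. Most nuclear members lie above 0 in both, with medians of 0.60 and 1.03, and the lowest filled point on the left is Cox6b2 at −1.03.

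Among the mitochondrially encoded genes, mt-Nd5, a proton-pumping subunit of complex I, was at 878, 1033, 643 and 662 CPM in control LT-HSCs and 670.2, 615 and 601 CPM in the AML1-ETO LT-HSCs. In GMPs it was at 1358, 1166, 1149 and 1116 CPM in controls and 1146, 1150.3 and 935 CPM in AML1-ETO. It rose from LT-HSC to GMP by 0.57 ± 0.16 in control mice (adjusted p = 0.0169 in edgeR) and by 0.78 ± 0.18 in AML1-ETO mice (0.00745). The groups of the cell types did not overlap in either genotype, but in control mice the call was lost without some libraries (adjusted p up to 0.0694 in edgeR). In AML1-ETO mice mt-Nd2 also rose, by 1.05 ± 0.23 (0.00447), as did mt-Nd6, by 0.91 ± 0.23 (0.0121, and up to 0.0642 with 1 library left out). mt-Nd2 was at 397, 299 and 317 CPM in the AML1-ETO LT-HSCs and 826, 666 and 610.4 CPM in AML1-ETO GMPs, whereas control LT-HSC replicate 2, at 741 CPM, lay within the control GMP range of 614 to 775 CPM. mt-Nd6 (chrM:13552-14070) is the protein gene of the opposite strand from the other 12, and the sources used here do not give the strand setting of the counting, so its reads and those of the opposite strand may be mixed.

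mt-Co1 was at 5127, 7618, 4591 and 4565 CPM in control LT-HSCs, 5753, 4703 and 4996 CPM in the AML1-ETO LT-HSCs, 8422, 6956, 7393 and 6646 CPM in the control GMPs, and 8953, 6665 and 6727 CPM in AML1-ETO GMPs. It was at 0.01 ± 0.25 for genotype in LT-HSCs and 0.04 ± 0.14 in GMPs. From LT-HSC to GMP it was at 0.43 ± 0.18 in control mice (adjusted p = 0.102 in edgeR) and 0.53 ± 0.21 in AML1-ETO mice (0.0851), and was called in neither. mt-Cytb (0.47 ± 0.21 and 0.66 ± 0.25) and mt-Nd1 (0.59 ± 0.21 and 0.70 ± 0.24) were not called either. No mitochondrial gene was called for genotype in LT-HSCs or GMPs. The fold changes for genotype were between −0.46 and 0.01 in LT-HSCs and between −0.34 and 0.49 in GMPs.

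**Figure D5:**
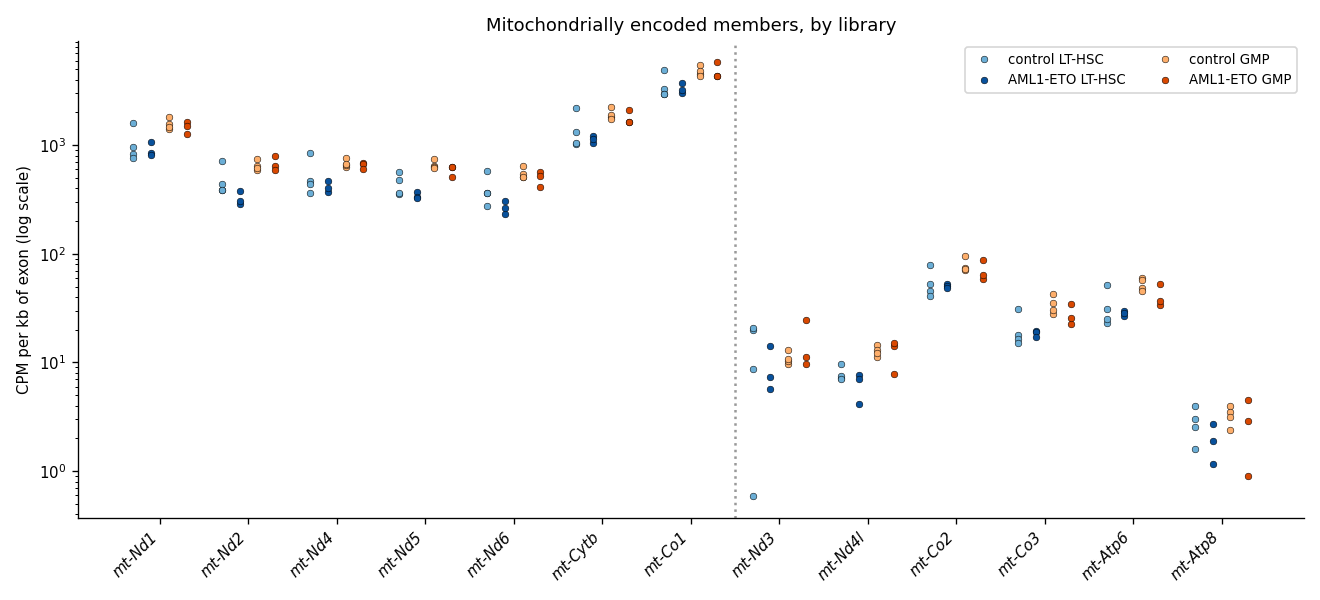
CPM per kilobase of exon of the 13 mitochondrially encoded genes in the 4 groups on a logarithmic axis, with 1 point per library and a dotted line before the genes with low levels. mt-Co1, mt-Cytb and mt-Nd1 are the highest in every group, and the genes with a full copy on chromosome 1, such as mt-Co2 at 54.5 CPM per kb in control LT-HSCs, lie well below.

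Several subunits exist as tissue isoforms, and most of those known from muscle, lung or testis were near 0. Cox4i2, the isoform of subunit 4 known from lung, was at 0 in all 7 LT-HSC libraries and at 0.964, 1.45, 2.99 and 1.51 CPM in control GMPs. Taking 3 counts over the control LT-HSC group as the floor, the level was at least 34.5-fold higher in control GMPs. It passed the filter on low counts only through the GMPs, and its call (adjusted p = 0.0471 in edgeR) was lost without each of the 8 control libraries (up to 0.0934) and with the block, upper-quartile scaling or no filter. Its AML1-ETO GMP libraries were at 4.47, 0.00 and 0.00 CPM. The common isoform Cox4i1 was at 267 to 365 CPM in control GMPs. Cox6a2, the heart and muscle isoform of subunit 6A, was at 2.43, 0.00 and 0.00 CPM in AML1-ETO GMPs and at 0.377 to 1.61 CPM in control GMPs, and Cox7a1, the muscle isoform of subunit 7A, did not pass 2.38 CPM in any library. Neither was called. Ndufa4l2, the paralog of Ndufa4 known from hypoxic cells, did not pass the filter on low counts in any comparison.

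The 3 genes of the ATP synthase c-ring encode the same mature protein. Atp5g1, Atp5g2 and Atp5g3 gave 18.7%, 36.8% and 44.5% of their summed level in control LT-HSCs and 12.4%, 41.3% and 46.2% in AML1-ETO LT-HSCs. They gave 22.6%, 30.4% and 47.0% in control GMPs and 20.9%, 32.4% and 46.7% in AML1-ETO GMPs. Atp5g3 had the highest share in each group and Atp5g1 the lowest. Atp5g1 was at 34.4, 83.1, 88.2 and 53.7 CPM in control LT-HSCs and 14.04, 27.0 and 29.7 CPM in the AML1-ETO LT-HSCs, which did not overlap, and at 121, 104, 132 and 109 CPM in control GMPs and 81.9, 94.8 and 91.3 CPM in AML1-ETO GMPs, which did not overlap either. It was not called for genotype in LT-HSCs (adjusted p = 0.0580 in edgeR) or in GMPs (−0.37 ± 0.12, 0.0962).

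Other genes of mitochondrial respiration were read from lists of assembly factors, regulators and neighbouring pathways. Over all genes tested, 7.59% were higher and 4.69% lower for genotype in LT-HSCs, and 5.47% and 3.96% for genotype in GMPs. For the interaction the shares were 3.43% and 2.91%. For GMP against LT-HSC they were 13.9% and 10.6% in control mice and 12.6% and 9.15% in AML1-ETO mice. At an unadjusted p under 0.05 in edgeR, 1737 of 14589 genes were lower and 2024 higher for genotype in LT-HSCs. In GMPs 1590 of 13981 were lower and 1780 higher. Each count below is to be read against these values. Of 47 assembly factors tested none was called for genotype in LT-HSCs (median −0.16; at an unadjusted p under 0.05, 1 was lower and 0 higher), and in GMPs 1 fell, Ndufaf4, an assembly factor of complex I, by 0.83 ± 0.20 on the log2 scale (adjusted p = 0.0430 in edgeR). From LT-HSC to GMP 1 rose in control mice, Uqcc1 (0.77), and 4 rose in AML1-ETO mice, among them Coa7 (1.73), Uqcc2 (1.51) and Ndufaf2 (1.35). Of 39 genes that express the mitochondrial genome, 2 fell in AML1-ETO LT-HSCs and 2 in AML1-ETO GMPs, shares near those of all genes that were lower, and none rose. These were the RNA-processing enzyme Elac2 and the mRNA-stabilising Lrpprc (both −0.90) in LT-HSCs and Tfb1m (−1.15) and Ptcd2 (−0.69) in GMPs. Between the cell types 3 of the 39 rose in GMPs of control mice and 7 in AML1-ETO mice, where 1 fell, the polymerase subunit Polg2 (−2.05). The genotype difference of Polg2 was lower in GMPs than in LT-HSCs (−1.88), and that of none of the 39 was called higher. Of 21 regulators of mitochondrial biogenesis tested for genotype, 4 rose in AML1-ETO LT-HSCs and none fell, among them the nuclear receptors Ppard (1.5) and Esrra (1.40) and the corepressor Nrip1 (1.34). In AML1-ETO GMPs 1 rose, Nrip1 (0.99), and 1 fell, Myc (−1.11). In GMPs against LT-HSCs 4 of 22 regulators rose and 1 fell in control mice, and 4 fell and none rose in AML1-ETO mice. The genotype difference was lower in GMPs than in LT-HSCs for 3 of the 22, Sirt3 (−1.35), Myc (−1.04) and Creb1 (−1.03), and higher for none.

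Of 19 enzymes of the tricarboxylic acid cycle and its entry, which supply NADH and succinate to the chain, 4 fell in AML1-ETO LT-HSCs and none rose (median −0.34), among them pyruvate carboxylase Pcx (−3.18), Idh3a (−1.22) and citrate synthase Cs (−0.75). In AML1-ETO GMPs 3 of the 19 fell and none rose (median −0.14): Dlat (−0.62), Fh1 (−0.55) and Idh3a (−0.54). The genotype difference was higher in GMPs than in LT-HSCs for 3 of them, Pcx (3.33), Idh3a (0.77) and Cs (0.74). From LT-HSC to GMP 11 rose in control mice and 12 in AML1-ETO mice, with none lower. Of 37 genes of protein import and cristae 7 fell in AML1-ETO LT-HSCs and none rose (median −0.60), among them Chchd10 (−3.32), the chaperone Hspd1 (−1.27) and prohibitin Phb (−1.24). In AML1-ETO GMPs 2 of the 37 fell, Hspd1 (−0.65) and the import receptor Tomm70a (−0.37), and none rose. Against LT-HSCs, 8 rose in GMPs of control mice and 17 in AML1-ETO mice, with none lower. The genotype difference was higher in GMPs than in LT-HSCs for 1 of the 37, Timm50 (1.14), and lower for none. Among electron carriers and coenzyme Q synthesis, 20 genes were tested and none was called for genotype in either cell type (at an unadjusted p under 0.05, 5 were lower in LT-HSCs, and 2 were lower and 1 higher in GMPs). From LT-HSC to GMP 2 rose and 1 fell in control mice and 7 rose in AML1-ETO mice: cytochrome c, Cycs, rose by 1.24 and 2.12 in these, and Coq8a fell in control mice (−1.74). Of 21 carriers and channels 1 rose in AML1-ETO LT-HSCs, the uncoupling protein gene Ucp2 (0.68), and none fell. In AML1-ETO GMPs 3 of the 21 fell, among them Slc25a23 (−1.22) and Slc25a13 (−0.84), and 1 rose, Slc25a25 (0.85). Between LT-HSCs and GMPs 6 rose and 2 fell in control mice, and 6 rose and 1 fell in AML1-ETO mice. For the interaction none was called among the assembly factors, the electron carriers and coenzyme Q genes, or these carriers and channels.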

How the data were processed

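The 14 bulk RNA libraries (LT-HSCs and GMPs, control and AML1-ETO) were analysed from the gene counts that the authors deposited in one table. Per the submitters' processing notes, HISAT2 2.0.5, featureCounts 1.5.0-p3 and mm10 were used. The sources used here do not give the annotation, the strand setting or the handling of reads with several matches. Per the labels' protocols, RNA was taken with a micro column kit, and a low-input SMART-Seq kit and a stranded SMARTer kit are both named for every library. Total counts were 13210952 to 19403864 per library, which limits the precision for members with few counts.

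The counts were filtered (filterByExpr), scaled by TMM and tested with edgeR 4.0.16 in R 4.3.3 (quasi-likelihood test, Benjamini-Hochberg over all genes, called at an adjusted p below 0.05). Genotype was tested on the 7 libraries of each cell type, and the interaction and the GMP against LT-HSC comparisons on all 14. Of the 102 lines, 90 passed the filter in LT-HSCs, 93 in GMPs and 94 in the fit of all libraries. The alternatives were DESeq2 1.42.0, voom in limma 3.58.1 (for the interaction only), other scaling, no filter, other sample sets, the replicate number as a block and each library left out. The test was checked on simulated counts. AML1-ETO LT-HSC and GMP libraries of the same replicate number deviated together (correlations of 0.143 to 0.318 in 3 pairs), so the number was taken as a pairing there, from the data and not from the labels. Copies were searched with BLAST+ 2.17.0 in the annotated transcripts of GENCODE M21, and summaries were made in Python 3.11.15.

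Named were the mitochondrial genes, the called members, a fixed set of core and isoform members and, where over 30 members were called, the 5 largest changes in each direction with a mean of at least 20 counts. For the other lists up to 3 called genes each were named by the same rule. The members and the lists were chosen with earlier results of these data known.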

Additional observations from a re-analysis of the deposited data

Results flagged for a closer look

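Among 101 tests of groups of 4 libraries, 5 had a highest or lowest library far from the others, where chance gives about 1 in 20. Uqcrc1 was lowest in control LT-HSC replicate 1 (170.0 CPM) and, in GMPs, in control replicate 2 (357 CPM). mt-Co2 was highest in control GMP replicate 1 (64.9 CPM). In control LT-HSC replicate 2, mt-Nd2 (741 CPM) and mt-Nd4l (2.86 CPM) were highest.

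The AML1-ETO difference was higher in GMPs than in LT-HSCs, by the interaction term in edgeR, for Ndufa10 (0.82 on the log2 scale), Ndufa12 (2.45), Sdhd (1.05) and Cox6b2 (2.59).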

How the results depend on the processing

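Members called lower in AML1-ETO LT-HSCs numbered 4 with all libraries, 15 with DESeq2, 8 with upper-quartile scaling and 26 in the fit of all 14 libraries, and each of these held all 4. Calls over all genes, in either direction, were 1791, 2795, 1765 and 3166 in the same order. In GMPs the number lower was 1, and 2 with DESeq2, where 1319 and 2308 genes were called over all. For the interaction the number higher was 4, 8 with DESeq2, 2 without the filter and 2 with voom. Calls over all genes were 1021, 1781, 874 and 1152. For GMP against LT-HSC in control mice the number higher was 36, 21 with upper-quartile scaling and 20 with only those libraries. Calls over all genes were 3949, 3762 and 3465. The 1 lower there was 0 without the filter. In AML1-ETO mice the nuclear median was 1.03, and 0.91 with DESeq2 or with upper-quartile scaling. The cause of these differences was not tested. Upper-quartile scaling moved the median of all genes by −0.13 for genotype in LT-HSCs and for GMP against LT-HSC in AML1-ETO mice, and by −0.12 in control mice, and the share of higher calls over all genes from 61.8% to 51.7%, from 57.9% to 48.5% and from 56.9% to 47.4%. DESeq2, which changes the test as well, gave 47.2%, 49.0% and 40.6%.

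With the replicate block, 0 members were lower in LT-HSCs, 0 in GMPs and 1 was higher for the interaction, and in control mice 0 were lower in GMPs. Calls over all genes with the block, in either direction, were 525 in LT-HSCs, 112 in GMPs and 568 for the interaction. Control libraries, and libraries of the same cell type, share only a number, with correlations between same-numbered libraries of −0.156 to 0.130, whereas the interaction also holds the AML1-ETO libraries whose number was taken as a pairing.

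Leaving out each library in turn gave 0 to 13 members lower and 0 to 1 higher in LT-HSCs, with nuclear medians of −0.54 to −0.30 and mitochondrial medians of −0.29 to 0.08, 0 to 13 lower in GMPs, 1 to 11 higher and 0 to 1 lower for the interaction, 15 to 61 higher and 0 to 1 lower in control mice, and 35 to 47 higher and 0 to 1 lower in AML1-ETO mice, with nuclear medians of 0.94 to 1.08. An alternative chosen after seeing the data left out control LT-HSC replicates 2 and 3: 2 members were then higher and 2 lower in LT-HSCs, 3 higher and 2 lower for the interaction (nuclear median 0.11; Cox6b2 and Ndufa10 kept their calls), and 65 higher and 0 lower in control mice (nuclear median 0.94), where Ndufa12 turned to 0.93 (adjusted p = 0.04995 in edgeR). Cox6a2, at 0.02 for genotype in GMPs, ranged from −6.78 (without AML1-ETO GMP replicate 1, the only AML1-ETO GMP library with a count of it, adjusted p = 0.0389 in edgeR) to 0.60.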
